A study of Flaveria ramosissima and Flaveria robusta and Flaveria sonorensis with 9 samples.

Results

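Among the 29558 unique gene IDs measured in leaves of 4 Flaveria species, 96 were both abundant and even across the species at control CO2. A gene was kept when the median of its 3 control libraries was at least 300 TPM in each species and when the largest of the 4 medians was below 3 times the smallest. TPM expresses abundance per length of transcript, relative to a total that is the same for every library. The C3 species was F. robusta and the C4 species F. trinervia, while F. sonorensis was labelled Type I C3-C4 and F. ramosissima Type II C3-C4. The leaf taken was mature and newly expanded, after 4 weeks at low CO2 (labelled 100) or at control CO2 (labelled 380, both levels in the unit of light intensity). What all groups shared was a chamber at 22 °C and 70% humidity, with days of 16 h in light of 200 µmol per square metre per second and nights of 8 h. The 8 samples, 1 for each species at each CO2 level, had 3 numbered libraries each. The sources used here give neither whether these libraries stand for separate plants nor whether a CO2 level was grown more than once. The p-values below therefore measure the spread between libraries, which may be technical, and CO2 and growth run cannot be told apart. Each photosynthetic type was 1 species, with 1 sample at each CO2 level, so species and photosynthetic type cannot be told apart either.

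In leaves, the most abundant messages of the nuclear genome are mostly those for the photosynthetic apparatus, such as the small subunit of Rubisco and the light-harvesting proteins, together with those for protein synthesis and for general metabolism. C3 leaves fix CO2 directly through Rubisco, and at low CO2 they lose more carbon to photorespiration. C4 leaves first concentrate CO2 around Rubisco in the bundle sheath, and C3-C4 leaves lie between both. The gene IDs of these files are not paired with gene names (0 of the IDs held one), so no role can be given to any member, no leaf marker could be looked up, and at most 4 IDs are named. The other members are given by their rank in abundance.

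Depth is unknown, because TPM does not keep the number of reads, and the values carry no counting error. Each library summed to between 85.9% and 92.6% of the TPM total. The way in which rows pair genes of different species was not stated in the sources used here, and reads of each species were aligned to its own genome. The F. ramosissima control libraries stood apart from the rest in their spread. Over the members, the median coefficient of variation of the 3 libraries was 32.8% there, against 5.83% to 14.6% in the other 7 samples. Library 3 of that sample was also the poorest in genes, with 12813 reaching 1 TPM where libraries 1 and 2 had 16564 and 15875.

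The values in this and the next paragraph chose the members and are given as a description. The geometric mean of the 4 control medians ran from 343 TPM in the least abundant member to 6912 TPM in the most abundant, with a median of 720 TPM. It was 1000 TPM or more in 36 members and under 1000 TPM in 60, of which 22 lay under 500 TPM. The ratio of the largest to the smallest control median was under 1.5 in 15 members, from 1.5 to under 2 in 28, and 2 or more in 53, with a median of 2.08. The members just inside the limits had a smallest median of 301 and 302 TPM or a ratio of 2.998 and 2.97. Just outside were genes with a smallest median of 297 and 288 TPM or a ratio of 3.02 and 3.04. A further 49 genes reached 300 TPM in all 4 species but differed by 3 times or more, up to 28.6 times.

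**Figure D1:**
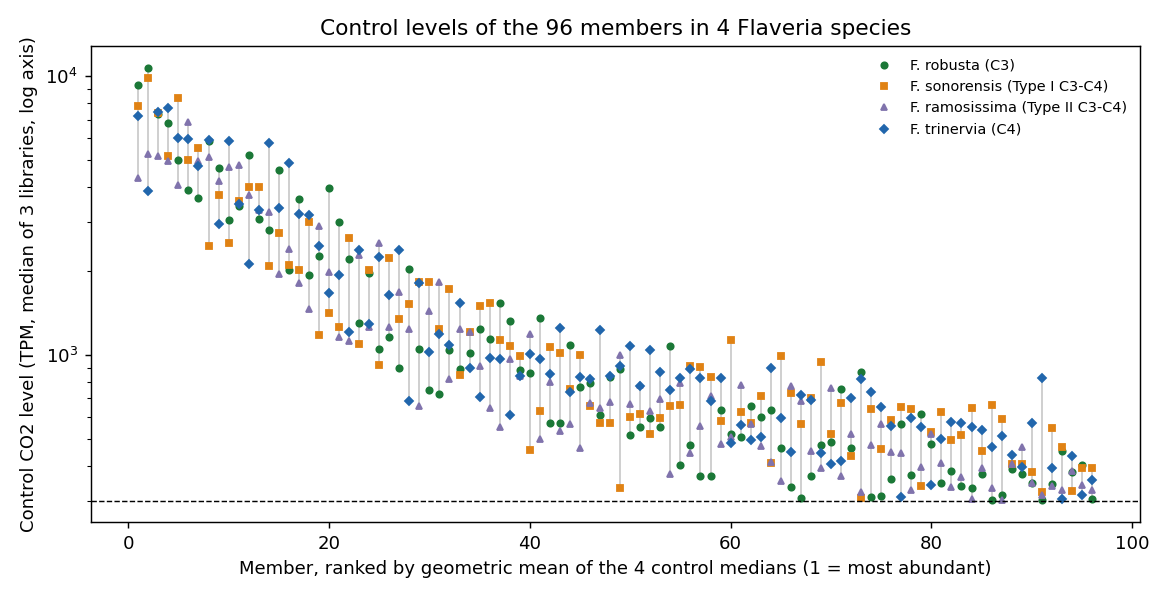
Control CO2 level of each of the 96 members (TPM, median of 3 libraries, log axis) in the 4 species, with members ranked by the geometric mean of the 4 medians and a grey line from the lowest to the highest species. The dashed line marks 300 TPM, and the geometric means run from 6912 TPM at rank 1 to 343 TPM at rank 96.

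The highest control median was that of F. sonorensis in 34 members, of F. trinervia in 31, of F. robusta in 19 and of F. ramosissima in 12. The lowest was that of F. robusta in 32 members, of F. ramosissima in 31, of F. sonorensis in 19 and of F. trinervia in 14. The most abundant member had 9094, 9784 and 9331 TPM in the F. robusta control libraries. It had 7952, 6879 and 7827 TPM in those of F. sonorensis, 4327, 3574 and 4733 TPM in those of F. ramosissima, and 7221, 6198 and 8096 TPM in those of F. trinervia. The F. ramosissima libraries lay below all others for this member. The second in abundance was steeper, with medians 2.78 times apart between F. robusta (10005 to 11746 TPM) and F. trinervia (3567 to 4031 TPM). The most even member, at rank 88, had medians 1.12 times apart, although its F. ramosissima control libraries were 406, 422 and 103 TPM. The median hid the low value of library 3 there. Each library held between 26 and 40 members among its 100 most abundant genes, and the first member stood at rank 5 to 15. The members are therefore abundant genes that are even across the species, not the most abundant genes of the leaf.

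The low CO2 libraries took no part in the choice and show how far the evenness held. At low CO2, 55 of the 96 members (57.3%) met the same rule and 41 did not. These 55 were 78.6% of the 70 genes that met the rule on the low CO2 medians. With wider limits at low CO2, of 200 TPM and 4 times, 77 of the 96 members met the rule. Of the 41 members, 19 had a median under 300 TPM in a species, 9 had medians 3 times or more apart, and 13 had both. A low CO2 median under 300 TPM was found for 25 members in F. robusta, 20 in F. ramosissima, 18 in F. trinervia and 6 in F. sonorensis. The median ratio of the largest to the smallest species was 2.25 at low CO2, against 2.08 at control CO2. Its largest value at low CO2 was 114, for Gene13344, which is described below. The species with the highest median stayed the same for 69 members and the one with the lowest for 61. The order of the members by level was close between both CO2 levels of a species, with a rank correlation over the 96 members of 0.869 in F. trinervia to 0.935 in F. ramosissima. It is a description over genes of the same table, which are not independent replicates.

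The members together held between 13.8% and 17.4% of the TPM of a library. In F. robusta they held 16.0%, 15.5% and 15.1% of the TPM sum in the low CO2 libraries, against 16.4%, 15.8% and 16.1% in the control libraries. In F. sonorensis the shares were 15.9%, 17.4% and 16.1% at low CO2, against 16.6%, 17.2% and 16.9% at control CO2. These libraries overlapped in both species. In F. ramosissima they were 14.75%, 14.63% and 13.80% at low CO2, against 13.79%, 14.71% and 16.64% at control CO2, and the ranges overlapped. In F. trinervia they were 15.7%, 15.9% and 16.2% at low CO2, against 16.5%, 17.3% and 16.9% at control CO2, and this was the species in which the libraries did not overlap. No p-value is given for a sum over chosen genes.

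**Figure D2:**
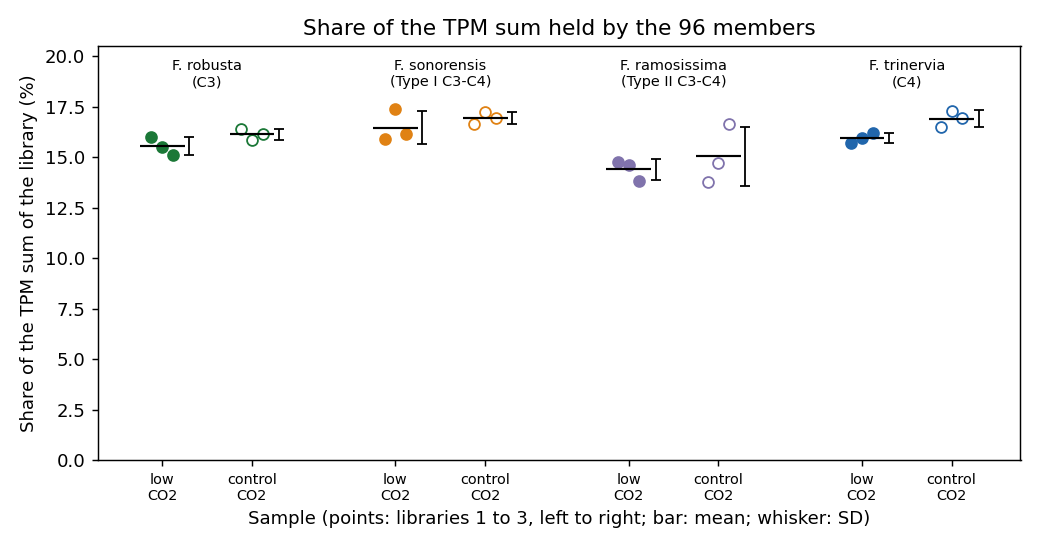
Share of the TPM sum of each library (%) held by the 96 members, low CO2 (filled) beside control CO2 (open) in each species, with the mean of 3 libraries as a bar and the SD as a whisker. All 24 libraries lie between 13.8% and 17.4%, and F. trinervia is the species whose low and control libraries are apart.

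The share moved less than the members did, because gains and losses stood beside each other. In F. trinervia, 35 members gained 1.32 percentage points in sum at low CO2 and 61 lost 2.29 points, which left a difference of -0.97 points. The difference was -0.57 points in F. robusta, -0.48 in F. sonorensis and, for F. ramosissima, -0.65. The sign of these differences varied with the libraries that chose the members. The 70 genes chosen by the same rule on the low CO2 libraries gave 0.43 points in F. robusta, 0.43 in F. sonorensis, 0.33 in F. ramosissima and 0.28 in F. trinervia. A choice on all 6 libraries of a species, tried only once these values were known, kept 82 genes (73 of them members) and gave -0.09, -0.08, -0.07 and -0.13 points in the same order. In F. ramosissima the difference was 0.14 points without control library 3. The 49 abundant but uneven genes held 26.97% to 28.83% of the TPM in the F. robusta low CO2 libraries and 26.4% to 27.1% in its control libraries. They held 16.0% to 23.2% in the libraries of the other 3 species.

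The low CO2 change of each member was then tested within each species, with 3 low CO2 libraries set against 3 control libraries in limma over all genes of at least 1 TPM. A change is on the log2(TPM + 1) scale, low minus control CO2, and a gene was called at a Benjamini-Hochberg adjusted p below 0.05. In F. robusta, 34 members fell and 7 rose, where 18.9% of all 13391 genes fell and 12.5% rose. In F. sonorensis, 25 members fell and 11 rose, against 15.6% and 9.95% of 14578 genes. In F. trinervia, 33 members fell and 8 rose, against 10.9% and 9.28% of 13793 genes. As shares of the 96, the falls were 35.4% in F. robusta, 26.0% in F. sonorensis and, for F. trinervia, 34.4%. In either direction 42.7% of the members were called in F. robusta, 37.5% in F. sonorensis and, for F. trinervia, 42.7%, against 31.4%, 25.5% and 20.2% of all genes. Among genes averaging 10 TPM or more, 43.75%, 40.6% and 43.75% of the members were called, against 42.1%, 35.3% and 32.3% of all genes. The shares in F. robusta were then close. Falls in that set were 36.5%, 29.2% and 35.4% of the members, against 22.8%, 18.9% and 15.1% of all genes. In F. ramosissima limma called 0 members, with 28 (29.2%) at an unadjusted p below 0.05 where 11.1% of all genes were, and it called 0.0256% of 15638 genes as higher and 0% as lower. The residual spread of the members was larger there, with a median SD of 0.40 (log2), against 0.14 to 0.16 in the other 3 species.

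Without a test, the libraries themselves give a second count. All 3 low CO2 libraries lay below all 3 control libraries for 45 members in F. robusta, 41 in F. sonorensis, 25 in F. ramosissima and 40 in F. trinervia, where 27.1%, 26.7%, 10.6% and 20.8% of all genes did so. They lay above all control libraries for 15, 18, 11 and 15 members in the same order of species, against 20.1%, 17.1%, 7.90% and 19.5% of all genes. In all 4 species at once, 22 members were lower in this way and 6 higher, against 2.73% and 2.12% of the 8632 genes with at least 1 TPM in every species.

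The control libraries that chose the members also enter each change, and the share of falls varied with that choice. Among the 70 genes chosen on the low CO2 libraries, 8 fell and 11 rose in F. robusta, 9 fell and 16 rose in F. sonorensis, and 10 fell and 14 rose in F. trinervia. Among the 82 chosen on all 6 libraries, 17 fell and 7 rose in F. robusta, 16 fell and 14 rose in F. sonorensis, and 17 fell and 12 rose in F. trinervia. The F. sonorensis count was also sensitive to scaling, with 10 falls (10.4%) and 11 rises (11.5%) after median-ratio scaling, where 13.0% and 13.9% of all genes fell and rose. The 36 calls became 14 (14.6%) without control library 3, where 14.1% of all genes were called, so the members' share was then close to that of all genes. They became 20 (20.8%, against 17.0% of all genes) without control library 2 and 23 (23.96%, against 21.6%) without low CO2 library 1. Fits without the variance trend called 7 rises in F. sonorensis and 5 in F. trinervia.

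The median change of the members was -0.23 in F. robusta, -0.16 in F. sonorensis, -0.14 in F. ramosissima and -0.16 in F. trinervia. Over all genes tested in each species it was -0.05, -0.08, -0.03 and 0.01 in the same order. In F. ramosissima this contrast turned on single libraries: without control library 3 the median was -0.08 for the members and -0.22 for all genes, and without control library 1 it was -0.27 and 0.12. The control libraries that chose the members enter these medians, which varied with that choice. For the 70 genes chosen on the low CO2 libraries they were -0.04, 0.05, 0.19 and 0.08 in the same order of species. For the 82 chosen on all 6 libraries they were -0.12, -0.01, -0.04 and -0.05. The first quartile of the members' changes was -0.84 in F. robusta, -0.43 in F. sonorensis, -0.72 in F. ramosissima and -1.01 in F. trinervia, and the third quartile lay between 0.04 and 0.23. In all, 46 members fell in 1 or more species, 14 rose in 1 or more and 1 did both, counts that were not made over all genes. Another 37 were called in no species (38.5%, where 46.0% of 8632 genes present in every species were called in none). Of these 37, 11 had a change under 0.25 in size in each of the 4 species, and 19 were members of 1000 TPM or more. By sign alone, 39 members were lower in all 4 species and 15 were higher, against 22.6% and 16.6% of the 8632 genes. These signs also rest on the control libraries that chose the members.

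**Figure D3:**
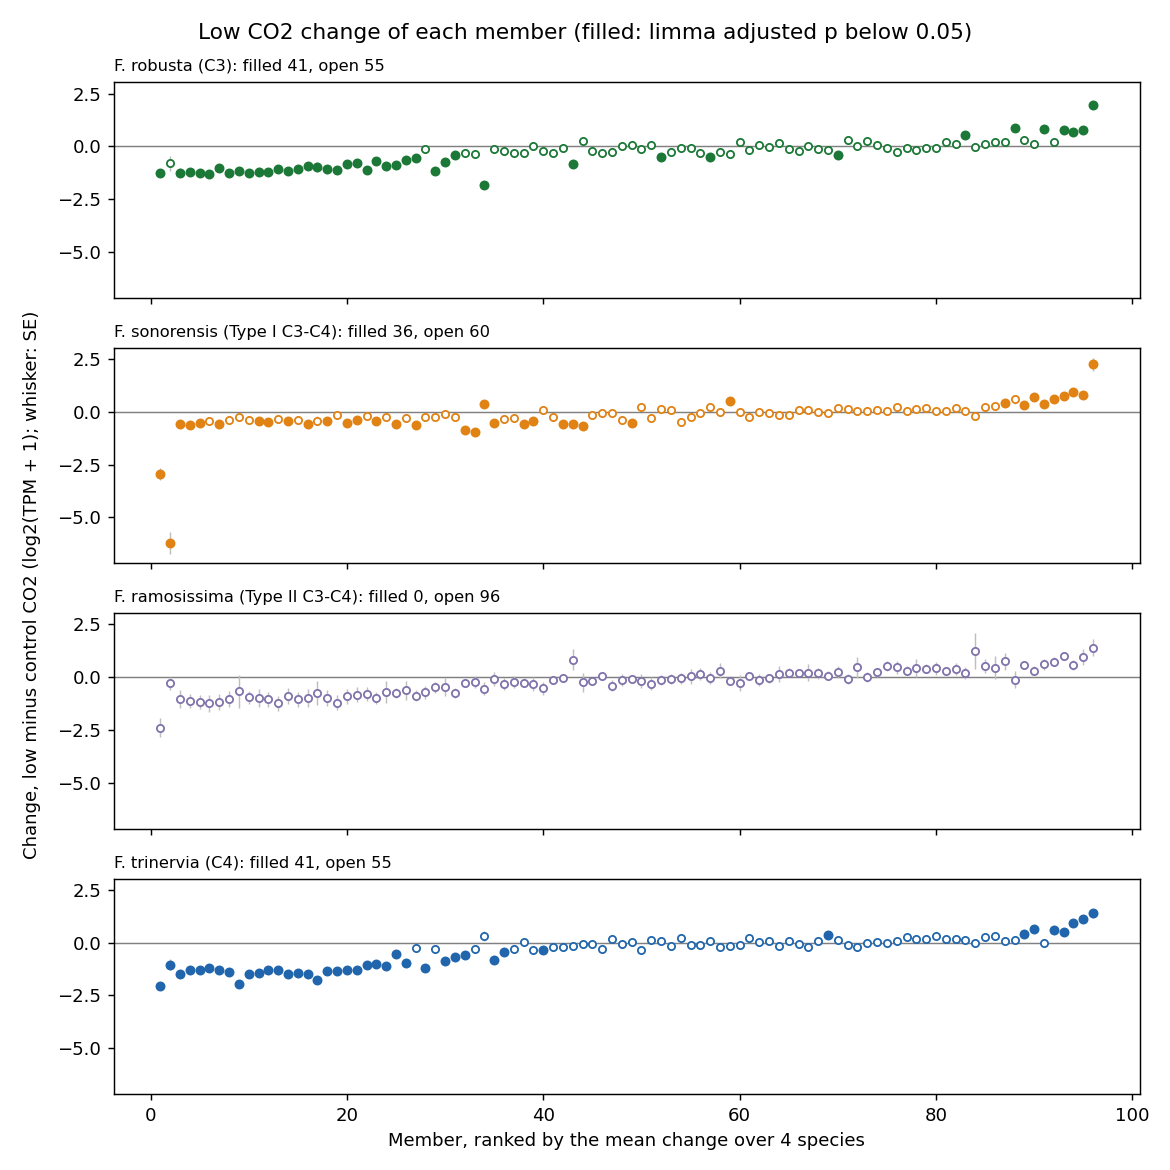
Change of each member (low minus control CO2, log2(TPM + 1), with its SE as a whisker) in the 4 species, with members ranked by their mean change. Filled points passed limma's test at an adjusted p below 0.05, which 41 members did in F. robusta, 36 in F. sonorensis, 0 in F. ramosissima and 41 in F. trinervia. The members with the lowest mean changes are Gene24608 and Gene13344, at -2.95 and -6.22 in F. sonorensis.

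The calls were also counted by level, where the less abundant members lie nearer to the limit of 300 TPM that chose them. Of the 36 members of 1000 TPM or more, 3 fell and 3 rose in F. robusta, 9 fell and 5 rose in F. sonorensis, and 3 fell and 4 rose in F. trinervia. Of the 60 members under 1000 TPM, 31 fell and 4 rose in F. robusta, 16 fell and 6 rose in F. sonorensis, and 30 fell and 4 rose in F. trinervia. Over all genes tested, the falls were 18.9% (F. robusta), 15.6% (F. sonorensis) and 10.9% (F. trinervia). The rises were 12.5%, 9.95% and 9.28% in the same order. Falls took a larger share of the 60 less abundant members than of all genes in each of these species. For the 36 more abundant members this held in F. sonorensis only, and their share of falls was smaller than that of all genes elsewhere. The summed shares were compared for both classes. The 60 less abundant members held 3.07% to 3.22% of the TPM in the F. robusta low CO2 libraries, against 3.43% to 3.98% in its control libraries. They held 3.44% to 3.58% in the F. trinervia low CO2 libraries, against 4.21% to 5.04% in its control libraries, and in both species the libraries were apart. In F. sonorensis (4.33% to 4.44% at low CO2, against 4.17% to 4.77% at control CO2) and in F. ramosissima (2.80% to 3.24%, against 2.86% to 4.57%) they overlapped. The 36 more abundant members held 12.2% to 12.7% in the F. trinervia low CO2 libraries, against 12.1% to 12.7% in its control libraries, and their libraries overlapped in each of the other species as well. The 10 most abundant members all met the rule at low CO2 as well. Their 2 calls were 1 rise in F. robusta and 1 fall in F. sonorensis, and the libraries of both CO2 levels overlapped in their summed share in every species. That share averaged 6.63% at low CO2 and 6.61% at control CO2 in F. robusta, and 6.25% and 6.63% in F. sonorensis. It averaged 5.56% at low CO2 and 5.81% at control CO2 in F. ramosissima, and 6.32% and 6.23% in F. trinervia. The most abundant member had 10354, 11856 and 10665 TPM at low CO2 in F. robusta, and its change there was 0.22 (SE 0.11, limma adjusted p = 0.179). All 3 low CO2 libraries were above the control libraries, but the difference did not pass the test.

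A block of members fell together in the C3 and the C4 species. It was defined after the values were seen, as the 27 members called lower in both F. robusta and F. trinervia, so its changes there are a description. These were 28.1% of the members, where 5.97% of the 8632 genes were called lower in both species. All 27 had a geometric mean of 361 to 887 TPM, and 0 of them reached 1000 TPM. The median change was -1.09 in F. robusta and -1.32 in F. trinervia, or 0.469 and 0.401 of the control level. In the species that did not define the block, all 27 were lower by sign, with medians of -0.97 in F. ramosissima and -0.42 in F. sonorensis. The control libraries of both species also entered the rule that chose the members, so these changes are a description too. Of all 515 genes called lower in both defining species, 95.5% were lower in F. ramosissima and 91.5% in F. sonorensis, with medians of -0.76 and -0.45. The direction of the 27 in these species was that of most genes called in the defining pair. In F. sonorensis 14 of the 27 fell in the test, so that 14.6% of the members were called lower in F. robusta, F. sonorensis and F. trinervia, against 2.87% of the 8632 genes. Of the 27, 5 met the rule at low CO2 and 10 would have been chosen on all 6 libraries.

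The sum of these 27 members showed the fall in each library. In F. robusta they held 0.780%, 0.714% and 0.570% of the TPM at low CO2, against 1.62%, 1.41% and 1.19% at control CO2. In F. sonorensis they held 1.31%, 1.47% and 1.48% at low CO2, against 1.70%, 2.12% and 1.89% at control CO2. In both species every low CO2 library lay below every control library. In F. ramosissima they held 0.607%, 0.896% and 0.895% at low CO2, against 1.28%, 2.44% and 1.25% at control CO2. In F. trinervia they held 0.928%, 0.880% and 0.862% at low CO2, against 2.004%, 2.704% and 1.814% at control CO2. The libraries were apart in these species as well, and control library 2 was the highest of its sample in F. sonorensis, F. ramosissima and F. trinervia. At low CO2 the shares of F. robusta, F. ramosissima and F. trinervia lay between 0.570% and 0.928%, below the lowest F. sonorensis library. Whether the 27 changed less in F. sonorensis than in the other species was not tested. The F test over the 4 species called 1 of them (rank 81, limma adjusted p = 0.0416), where 11.0% of the 8632 genes were called, and this call held under 17 of 32 alternatives.

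**Figure D4:**
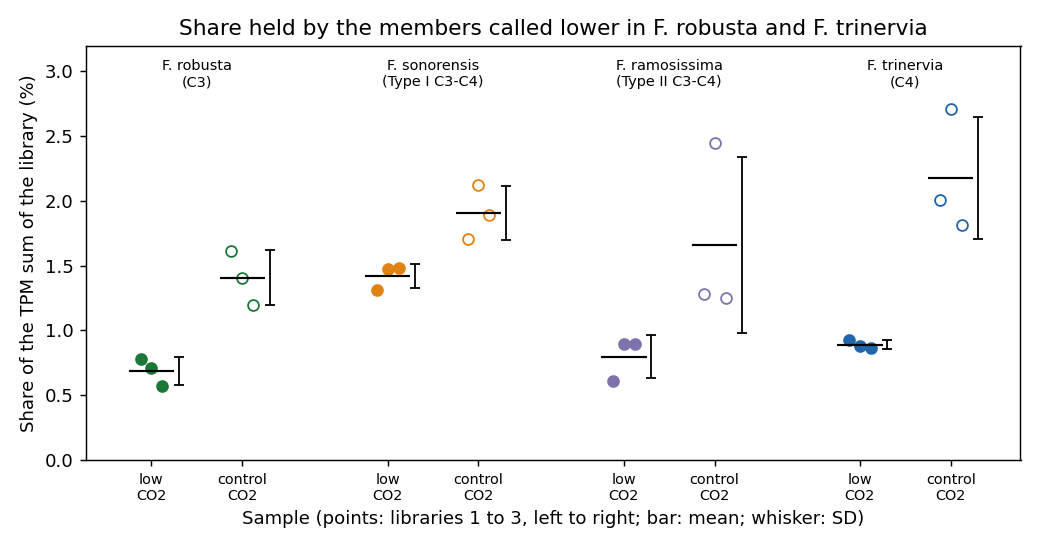
Share of the TPM sum of each library (%) held by the 27 members called lower in F. robusta and F. trinervia, low CO2 (filled) beside control CO2 (open), with the mean of 3 libraries as a bar and the SD as a whisker. In every species the 3 low CO2 libraries lie below the 3 control libraries, which in F. robusta and F. trinervia follows from how the 27 were chosen.

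A smaller group of 4 members rose in F. robusta, F. sonorensis and F. trinervia (4.17% of the members, against 2.22% of the 8632 genes). With the library number as a replicate block, fewer than these 4 were called higher in all of these species. All 4 met the rule at low CO2 too. In F. ramosissima, where they were not called, their changes had a median of 0.98 and the low CO2 libraries lay above the control libraries for all 4. That direction was shared by most genes called higher in the species that define this group. By sign, 96.9% of all 192 such genes were higher in F. ramosissima, with a median change of 0.78. Together the 4 held 1.01% to 1.89% of the TPM in the 12 low CO2 libraries, and 0.399% to 0.971% in the 12 control libraries. Their gain of 0.67 points in F. robusta, 0.85 in F. sonorensis, 0.52 in F. ramosissima and 0.61 in F. trinervia stood beside the loss of the 27 falling members of 0.72, 0.48, 0.86 and 1.28 points in the same order.

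Gene22714 had the largest mean rise of all members, 1.75 over the 4 species. In F. robusta it had 2511, 2147 and 2167 TPM at low CO2, against 506, 651 and 611 TPM at control CO2, a change of 1.95 (SE 0.14, limma adjusted p = 0.000102). In F. sonorensis it had 4332, 3191 and 1604 TPM at low CO2, against 624, 565 and 569 TPM at control CO2, a change of 2.26 (SE 0.31, adjusted p = 0.00182 in limma). The low CO2 libraries were all above the control libraries in both species, although those of F. sonorensis were spread widely. In F. trinervia it had 3592, 2654 and 3049 TPM at low CO2, against 1488, 900 and 1227 TPM at control CO2, a change of 1.38 (SE 0.20, limma adjusted p = 0.00410). In F. ramosissima it had 2046, 920 and 1270 TPM at low CO2, against 643, 317 and 651 TPM at control CO2, and the change of 1.39 did not pass the test (SE 0.40, limma adjusted p = 0.317). The order of the species at low CO2 by median was F. sonorensis, F. trinervia, F. robusta and F. ramosissima, and the F. sonorensis libraries overlapped those of each of the other 3 species.

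Gene03814, a more abundant member at rank 12, had the second largest mean rise, 0.91. Its F. robusta libraries had 10087, 7897 and 7186 TPM at low CO2, against 4062, 5207 and 5417 TPM at control CO2, a change of 0.77 (SE 0.17, limma adjusted p = 0.0110). Its F. sonorensis libraries had 7506, 7285 and 6871 TPM at low CO2, against 4969, 4010 and 3790 TPM at control CO2, also a change of 0.77 (SE 0.13, limma adjusted p = 0.00404). In both species the libraries did not overlap. The F. trinervia libraries had 4937, 4556 and 4869 TPM at low CO2, against 2322, 2124 and 2097 TPM at control CO2, a change of 1.13 (SE 0.09, limma adjusted p = 0.000800). In F. ramosissima they had 7406, 5164 and 4490 TPM at low CO2, against 3764, 1657 and 3785 TPM at control CO2, and the change of 0.95 was not called (SE 0.36, limma adjusted p = 0.401). The ratio of the highest to the lowest species median was 1.62 at low CO2, against 2.45 at control CO2. Its change was not shown to differ between the species (limma F test, adjusted p = 0.811).

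Gene24608 had the largest mean fall, -2.18, and lay next to the lower limit of the rule. It had 102, 158 and 122 TPM at low CO2 in F. robusta, against 301, 286 and 332 TPM at control CO2 (change -1.28, SE 0.17, limma adjusted p = 0.00123). In F. sonorensis it had 55.7, 35.5 and 31.2 TPM at low CO2, against 322, 211 and 447 TPM at control CO2 (change -2.95, SE 0.29, limma adjusted p = 0.000476). All low CO2 libraries were below all control libraries in both. In F. trinervia, where its control level was highest, it had 192, 216 and 239 TPM at low CO2, against 1139, 791 and 829 TPM at control CO2 (change -2.07, SE 0.16, limma adjusted p = 0.000800). In F. ramosissima it had 35.7, 59.9 and 117 TPM at low CO2, against 313, 273 and 450 TPM at control CO2. The libraries were apart there too, but the change of -2.40 did not pass the test (SE 0.45, limma adjusted p = 0.210).

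Gene13344 was the third most even member at control CO2 and the least even at low CO2. Its control medians were 793 TPM in F. robusta, 658 TPM in F. sonorensis, 670 TPM in F. ramosissima and 821 TPM in F. trinervia, a ratio of 1.25. In F. sonorensis it had 5.94, 24.5 and 4.86 TPM at low CO2, against 604, 1064 and 658 TPM at control CO2, a change of -6.22 (SE 0.50, limma adjusted p = 0.000229). The mean level in F. sonorensis was 65.9 times lower at low CO2. In F. trinervia it had 248, 531 and 427 TPM at low CO2, against 822, 747 and 821 TPM at control CO2, and it fell by 1.05 (SE 0.25, limma adjusted p = 0.0262). That call was lost without low CO2 library 3 or any 1 of the 3 control libraries, with adjusted p-values of 0.0633 to 0.0756 in limma. In F. robusta it had 892, 478 and 466 TPM at low CO2, against 1720, 755 and 793 TPM at control CO2, and in F. ramosissima 674, 702 and 441 TPM, against 670, 1064 and 544 TPM. Both sets overlapped and neither change passed the test (-0.79 with an adjusted p of 0.130, and -0.30 with an adjusted p of 0.831, limma). The change differed between the species (limma F test, adjusted p = 2.1e-05).

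**Figure D5:**
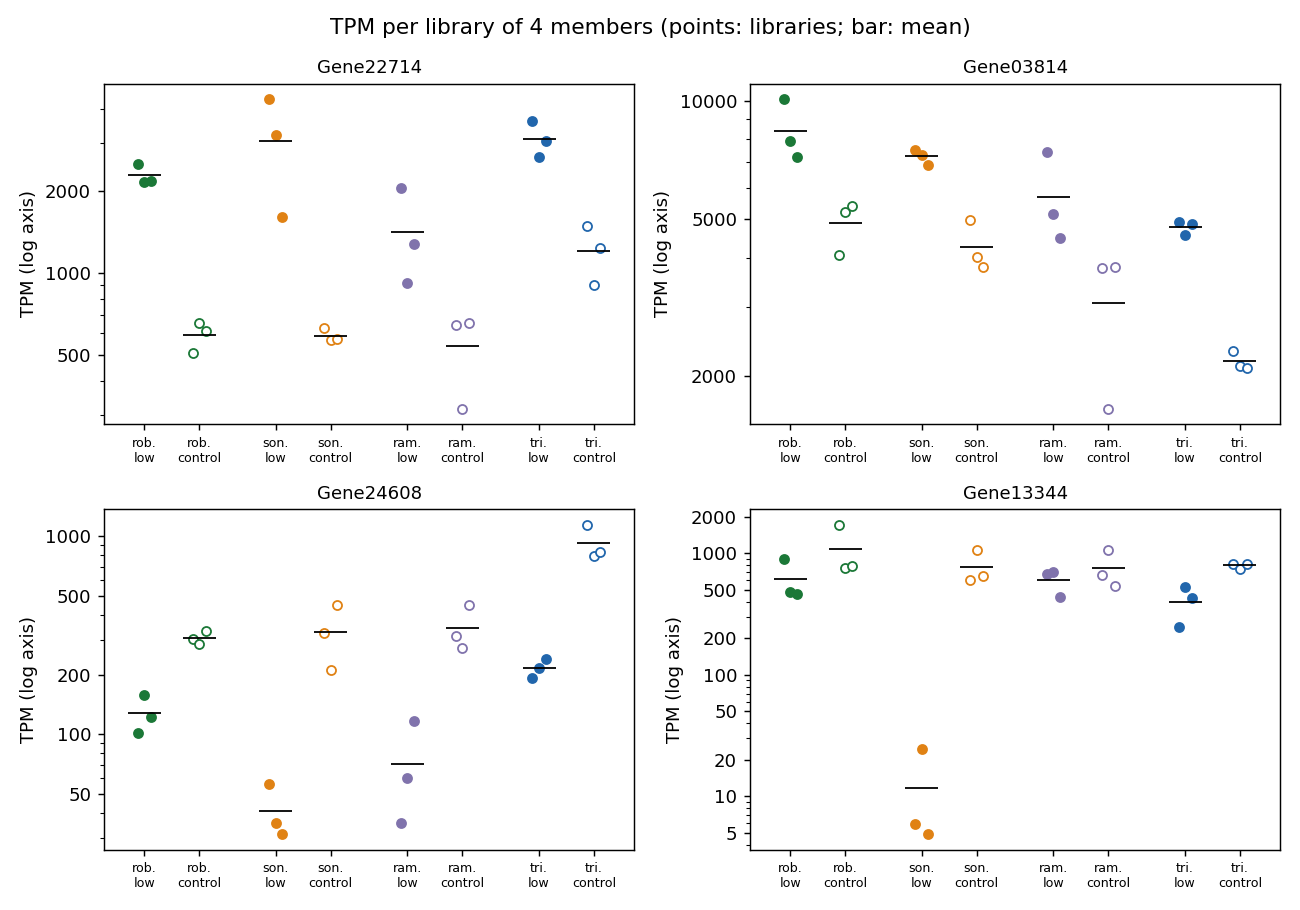
TPM (log axis) of Gene22714, Gene03814, Gene24608 and Gene13344 in each library, low CO2 (filled) beside control CO2 (open) in the 4 species, with the mean of 3 libraries as a bar. The low CO2 libraries of Gene13344 in F. sonorensis, at 4.86 to 24.5 TPM, stand far below its other libraries.

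Differences of the low CO2 change between species were called for 4 of the 96 members by the interaction test on all 24 libraries, where 11.0% of 8632 genes were called. The counts of members and of all genes both moved with single F. ramosissima control libraries. For the members the count was 10 without library 1, 20 without library 2 and 22 without library 3. These were 10.4%, 20.8% and 22.9% of the members, and the calls over all genes were then 15.5%, 18.9% and 23.5%. With each of the other libraries left out in turn it lay between 2 and 6. The clearest of these after Gene13344 was the member at rank 30. It had 266, 176 and 194 TPM at low CO2 in F. robusta, against 746, 678 and 774 TPM at control CO2, and fell by 1.81 there (SE 0.16, limma adjusted p = 0.000286). In F. sonorensis it had 2450, 2514 and 2227 TPM at low CO2, against 1894, 1821 and 1821 TPM at control CO2, and rose by 0.38 (SE 0.10, limma adjusted p = 0.0274). It was the member called in both directions. In F. trinervia it had 1684, 1038 and 1039 TPM at low CO2, against 1166, 783 and 1027 TPM at control CO2, and in F. ramosissima 873, 716 and 1033 TPM, against 1685, 839 and 1439 TPM. Neither of these was called.

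With 1 value per sample and species as a term, limma called 0 members for a shared change and 0% of 17720 genes, while 47 members (49.0%) and 19.1% of all genes had an unadjusted p below 0.05. Among genes averaging 10 TPM or more, the same model called 19 members lower and 4 higher (19.8% and 4.17%), against 3.64% and 2.73% of 7250 genes. The control means of this model come from the libraries that chose the members, so these counts are a description. With 17720 genes fitted, 66 members were lower by sign and 30 higher. Of the 70 genes chosen on the low CO2 libraries, 32 were lower and 38 higher. The smallest adjusted p of the 4 named members was 0.0722 in the wider set, shared by Gene22714, Gene03814 and Gene24608, and it was 0.341 for Gene13344.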

How the data were processed

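Leaf mRNA of 4 Flaveria species was sequenced with reads of 150 bp. The deposited values are TPM, which the authors computed with RSEM (named in the submitters' processing notes) after alignment with STAR to the genome of each species, as their methods describe. Those methods do not cover the low CO2 treatment. Each of the 24 columns carries the code of 1 sample, and no column was unused (0). From 29566 rows, 8 with 4 repeated IDs were dropped. A long-read sample of F. ramosissima was not used here. As TPM is a share, gains of some genes lower the values of others, and near-identical gene copies are uncertain because RSEM splits their reads.

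Members and lists were chosen with earlier results of these data known. Values were taken as log2(TPM + 1), which understates changes of low genes. In limma 3.58.1 under R 4.3.3 (moderated by eBayes with its trend option, two-sided), genes averaging 1 TPM or more in the species were fitted, 3 low CO2 against 3 control libraries. The interaction used 24 libraries and the 8632 genes averaging 1 TPM in every species, and the shared change used 1 mean per sample with species as a term. P-values were adjusted by Benjamini-Hochberg (threshold 0.05) over all genes tested. The members named are the 2 largest mean rises and 2 largest mean falls among those called in at least 2 species with 1 sign in all 4. The block of 27 and the group of 4 members were picked after their values were seen. Fits were tested on simulated data. The alternatives varied the rule's limits, the libraries choosing the members, pseudocount, minimum TPM, scaling, trend and replicate block, and left out single libraries.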

Additional observations from a re-analysis of the deposited data

Results flagged for a closer look

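In 4 members, limma's F test called a difference of the low CO2 change between species, adjusted over 8632 genes. Gene13344 had an adjusted p of 2.1e-05 and was called under all 32 alternatives. The member at rank 30 in abundance had an adjusted p of 0.000499 and was also called under all 32. The member at rank 81 had an adjusted p of 0.0416 and was called under 17 of the 32, with values up to 0.101. Its change was -1.14 in F. robusta, -0.13 in F. sonorensis, -1.20 in F. ramosissima and -1.34 in F. trinervia. The member at rank 32 had an adjusted p of 0.0480 and was called under 11 of the 32, with values up to 0.192. It had 553, 435 and 421 TPM at low CO2 in F. robusta, against 1116, 1033 and 1040 TPM at control CO2, with a change of -1.19. Its changes were -0.26, -0.48 and -0.30 in F. sonorensis, F. ramosissima and F. trinervia.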

How the results depend on the processing

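Pseudocounts of 0.1 and 5, no minimum TPM and fits without the trend moved no total of calls by over 1.5 times, and no called change reversed. Without the trend, rises went to 7 (11 with it) in F. sonorensis and 5 (8 with it) in F. trinervia. Other limits gave 51 members at 500 TPM, 43 below 2 times and 51 after median-ratio scaling across species (40 of them among the 96), and 86 to 100 members without 1 control library. Between 53 and 59 members met the rule at low CO2 without 1 low CO2 library. Genes chosen on the low CO2 libraries gave 19 calls in F. robusta, 24 in F. trinervia and 0 for the difference between species (12 at an unadjusted p below 0.05 in limma), with share differences of 0.4335 points in F. robusta, 0.4274 in F. sonorensis and, for F. trinervia, 0.2777. Genes chosen on all 6 libraries, added after the data were examined, gave 24 calls in F. robusta and share differences of -0.0871 points there and -0.1289 in F. trinervia. The F. sonorensis calls were 21 after median-ratio scaling and 14 to 32 without 1 library. The difference between species was called for 9 members (9.4%) after quantile normalization, against 14.7% of all genes, and for 2 to 22 members without 1 library. The shared change was called for 23 members at a minimum of 10 TPM. Without 1 library the share difference ran from -0.807 to -0.362 points in F. robusta, -0.934 to -0.185 in F. sonorensis, -1.28 to 0.144 in F. ramosissima and -1.18 to -0.776 in F. trinervia, and the F. ramosissima median change was -0.27 without control library 1 and -0.08 without control library 3. Quantile normalization moved the median of all genes by 0.10 in F. robusta and 0.10 in F. sonorensis (log2). For libraries with the same number, the correlations of their deviations ran from -0.23 to 0.41. The highest were those of F. trinervia libraries 2 (0.41) and 1 (0.32), while its library 3 was at -0.006. With the number as a replicate block, 44 members were called in F. robusta, 41 in F. sonorensis, 40 in F. trinervia and 6 for the difference between species. Of all genes, 29.0%, 25.4%, 22.6% and 8.57% were called in the same order. The block of falling members then held 28, and the group of rising members held 2, against 4 without the library number. Gene13344 in F. robusta then had an adjusted p of 0.00622 (limma). The cause of these moves was not tested. TPM gives no depth, so the limit of detection of single members is unknown.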
